A study of Mus musculus with 12 samples.

Results

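Pdgfra, Pdgfrb, Fap, Thy1, Dcn, Lum, Postn, Dpt, Mfap5 and Ccdc80 are 10 genes by which fibroblasts and the matrix they lay down are commonly recognized, collagens left aside. They were taken as named rows of the gene count table, 10 of its 23420 genes, and all 10 passed the filter on low counts that left 13095 genes for testing. Their RNA was measured in 12 subcutaneous tumors of B16-F10, a mouse melanoma line of C57BL/6 origin, grown in male C57BL/6J mice that were 4 to 5 weeks old when the diets began. Obese mice had eaten a Western diet with added cholesterol for 15 weeks and non-obese mice a matching control diet. Once tumors were palpable, each mouse received 10 mg/kg of anti-PD-1 (clone 29F.1A12) or isotype control antibody (clone 2A3) 3 times a week, and tumors were collected on day 16. Each of the 4 groups (non-obese isotype, non-obese anti-PD-1, obese isotype, obese anti-PD-1) holds 3 tumors. All groups carry the same implanted line, which is a single transplanted melanoma, and the stroma around it is of the host.

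Fibroblasts build and remodel the collagen-rich matrix between cells, and in tumors they form much of the stroma. Pdgfra and Pdgfrb encode the receptors for platelet-derived growth factors. Pdgfra is a general marker of fibroblasts, whereas Pdgfrb is also strong on pericytes, the cells that wrap small vessels. Fap encodes a surface protease of activated fibroblasts, and Thy1 (CD90) a surface glycoprotein that mouse T cells carry too. Dcn (decorin) and Lum (lumican) are small leucine-rich proteoglycans that bind collagen fibrils. Postn (periostin) is a matricellular protein, Dpt (dermatopontin) a small matrix protein of skin, Mfap5 a component of elastin-associated microfibrils, and Ccdc80 a secreted matrix protein that adipose stroma also makes. In bulk tissue, fewer cells of a type and less RNA per cell cannot be told apart.

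Promoter sequence is shown for Pdgfra, Dpt and Postn and for none of the other genes, a choice not based on their levels. These are the 250 bases before an annotated start, 5′ to 3′ on the plus strand, from RefSeq (GRCm38.p6), at chr5:75152001-75152250, chr1:164796413-164796662 and chr3:54360857-54361106. Capitals mark the only match to any of 4 motifs searched on both strands, namely the box read by the core machinery at some starts (TATAAA), the site of Sp1-like factors (GGGCGG), the AP-1 site (TGAGTCA) and the site of TEAD factors (GGAATG).
Pdgfra: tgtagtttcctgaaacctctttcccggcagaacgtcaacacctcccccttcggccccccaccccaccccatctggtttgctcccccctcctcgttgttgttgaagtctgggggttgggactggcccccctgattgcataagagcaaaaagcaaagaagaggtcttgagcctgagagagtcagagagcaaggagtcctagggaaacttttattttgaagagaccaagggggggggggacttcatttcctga
Dpt: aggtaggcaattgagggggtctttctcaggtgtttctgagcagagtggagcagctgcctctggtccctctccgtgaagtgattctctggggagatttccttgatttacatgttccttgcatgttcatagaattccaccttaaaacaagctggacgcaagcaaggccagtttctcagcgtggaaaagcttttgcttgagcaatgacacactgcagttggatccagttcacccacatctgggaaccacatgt
Postn: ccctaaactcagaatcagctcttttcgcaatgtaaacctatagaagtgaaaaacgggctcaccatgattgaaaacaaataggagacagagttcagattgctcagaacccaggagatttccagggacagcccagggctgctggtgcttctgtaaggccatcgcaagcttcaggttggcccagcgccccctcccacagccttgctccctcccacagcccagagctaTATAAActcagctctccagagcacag
The TATAAA of Postn began 26 bases before the start. Over all 32851 promoter windows of that length, the box (TATAAA) was held by 12.37%, the Sp1-like site by 32.74%, the AP-1 site by 4.463% and the TEAD site by 12.64%. The 3 windows thus held no common motif of those searched. A second annotated Postn start had no match either.

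All 10 are protein-coding genes in the GENCODE vM21 annotation of GRCm38 (mm10). Pdgfra lies at chr5:75152292-75198215, Pdgfrb at chr18:61045150-61085061, Thy1 at chr9:44043384-44048579, Postn at chr3:54361109-54391037, Dpt at chr1:164796644-164824266, Mfap5 at chr6:122505845-122529290 and Ccdc80 at chr16:45093402-45128077, all on the plus strand. Dcn (chr10:97479609-97518143) and Lum (chr10:97565128-97572703) are neighbors on the plus strand, and Fap (chr2:62500943-62574075) is on the minus strand. Dpt overlaps an antisense gene, Gm32569, over 20298 bases, and Pdgfra overlaps Gm42802 and Gm42803 on the other strand and Mir7025 on its own. Whether reads were counted by strand is not given in the sources used here, so reads of these overlapping genes may be mixed.

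Total counts per tumor ranged from 14022929 to 33871843. The smallest libraries were obese isotype replicate 2 and obese anti-PD-1 replicate 1 (14466484). Libraries of the same group differed by more than counting noise. Melanocytic markers (8 genes, among them Pmel, Tyr and Dct) summed to between 26045 and 31886 CPM, the read count relative to library size, in every tumor, with no marker at 0 in any tumor, whereas the 10 fibroblast genes summed to between 65.8 and 254. CPM here are scaled by library size and by the TMM factor of edgeR, and values per tumor are in the order of replicates 1, 2 and 3.

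Per kilobase of exon, Pdgfrb and Thy1 were the most abundant of the 10 genes on average, at 7.03 ± 2.31 and 6.82 ± 3.15 CPM per kb (SD over the 12 tumors). Their order was not fixed, since Pdgfrb exceeded Thy1 in 6 of the 12 tumors. Postn followed at 5.60 ± 3.04, then Ccdc80 at 3.10 ± 1.75 and Dpt at 2.13 ± 1.56 CPM per kb. In non-obese isotype replicate 2 and obese anti-PD-1 replicates 2 and 3, Postn lay above Pdgfrb. Dcn (1.46 ± 1.03) and Mfap5 (1.31 ± 0.906) did not separate, with Dcn above Mfap5 in 7 of 12 tumors. Lum (0.647 ± 0.466), Pdgfra (0.337 ± 0.220) and Fap (0.175 ± 0.0812 CPM per kb) were the least abundant. Fap had only 6 to 50 counts per tumor and Lum 5 to 128, so their values carry the most counting error. Dpt varied most, 22.1-fold between the lowest and the highest tumor, and Pdgfrb least, 3.52-fold.

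**Figure D1:**
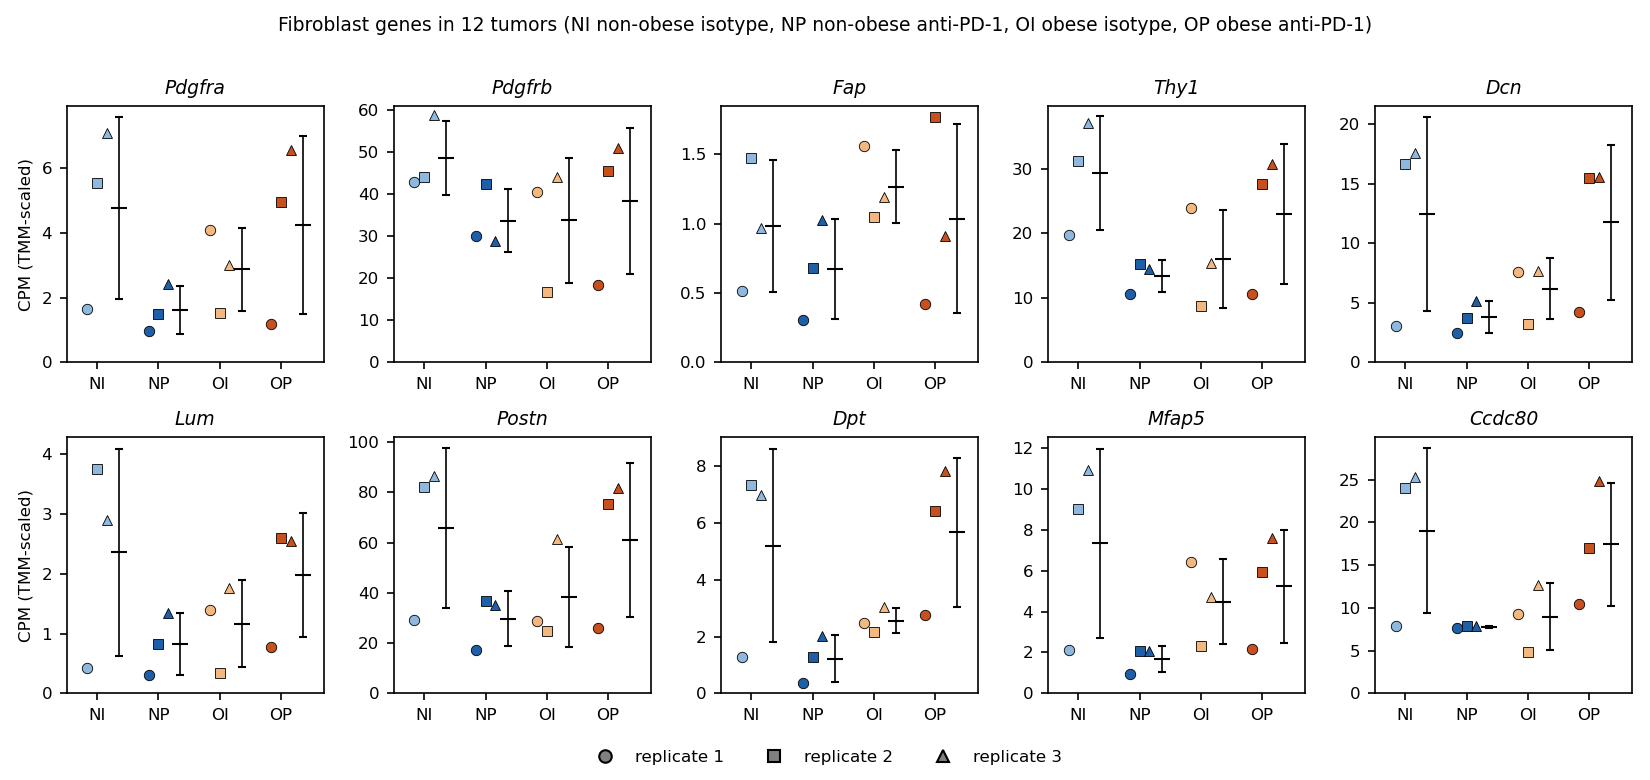
Level of each gene in each tumor, in CPM on a linear axis from 0, by group (NI non-obese isotype, NP non-obese anti-PD-1, OI obese isotype, OP obese anti-PD-1). Symbols are replicates, and the bar beside them is the mean ± SD of 3 tumors. The 3 NP tumors are low for most genes, while NI and OP each hold 2 high tumors and 1 low tumor.

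The receptor Pdgfra stood at 1.64, 5.56 and 7.10 CPM in non-obese isotype tumors and at 0.966, 1.48 and 2.41 CPM under anti-PD-1. In obese mice it stood at 4.08, 1.54 and 3.01 CPM with isotype and at 1.20, 4.97 and 6.57 CPM with anti-PD-1. Non-obese isotype and obese anti-PD-1 each had 2 high tumors and a low one, and each treated group overlapped its control group. Pdgfrb was 42.9, 44.0 and 58.7 CPM in non-obese isotype tumors and 29.9, 42.3 and 28.7 CPM under anti-PD-1, so these groups lay close but did not overlap. In obese mice, Pdgfrb was 40.5, 16.6 and 43.9 CPM with isotype and 18.5, 45.4 and 50.9 CPM with anti-PD-1. The 2 lowest Pdgfrb values were those of the 2 smallest libraries.

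Of the surface proteins, Thy1 reached 19.8, 31.2 and 37.1 CPM in non-obese isotype tumors, all above the 10.6, 15.2 and 14.4 CPM of non-obese anti-PD-1 tumors. It was 23.9, 8.67 and 15.4 CPM in obese isotype and 10.6, 27.6 and 30.7 CPM in obese anti-PD-1 tumors, which overlapped. Fap stayed at or below 1.77 CPM in every tumor. Its group means ran from 0.670 ± 0.360 CPM in non-obese anti-PD-1 to 1.27 ± 0.261 CPM in obese isotype tumors (SD, n = 3 each), and it was the only one of the 10 genes with its highest group mean in obese isotype tumors.

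The proteoglycan Dcn was 3.08, 16.7 and 17.6 CPM in non-obese isotype tumors and 2.49, 3.71 and 5.17 CPM under anti-PD-1. It was 7.61, 3.22 and 7.69 CPM in obese isotype and 4.23, 15.5 and 15.6 CPM in obese anti-PD-1 tumors. The same 4 tumors, replicates 2 and 3 of non-obese isotype and of obese anti-PD-1, were thus well above the other 8. Lum gave the same 4 highest tumors, at 3.76 and 2.90 CPM and at 2.61 and 2.55 CPM, while the other 8 ranged from 0.305 to 1.77 CPM.

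Among the other matrix genes, Mfap5 was 2.12, 8.99 and 10.9 CPM in non-obese isotype tumors against 0.966, 2.07 and 2.05 CPM under anti-PD-1. All 3 treated tumors lay below all 3 isotype tumors, but the gap to isotype replicate 1 was small. In obese mice Mfap5 was 6.44, 2.31 and 4.73 CPM with isotype and 2.19, 5.95 and 7.57 CPM with anti-PD-1, where the groups overlapped. Dpt was 1.28, 7.35 and 6.99 CPM in non-obese isotype tumors and 0.356, 1.30 and 2.01 CPM under anti-PD-1. In obese mice it was 2.48, 2.17 and 3.06 CPM with isotype and 2.75, 6.44 and 7.85 CPM with anti-PD-1. Every obese anti-PD-1 tumor was thus above every non-obese anti-PD-1 tumor for Dpt.

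Ccdc80 was nearly constant in non-obese anti-PD-1 tumors, at 7.68, 7.82 and 7.89 CPM (7.80 ± 0.111, SD, n = 3). It spread from 7.87 to 24.0 and 25.3 CPM in non-obese isotype tumors, and was 9.25, 4.90 and 12.7 CPM in obese isotype and 10.5, 16.97 and 24.9 CPM in obese anti-PD-1 tumors. Postn was 29.2, 82.2 and 86.4 CPM in non-obese isotype and 17.1, 36.8 and 35.2 CPM in non-obese anti-PD-1 tumors, which overlapped through isotype replicate 1. In obese mice Postn was 28.9, 25.0 and 61.4 CPM with isotype and 26.0, 75.3 and 81.9 CPM with anti-PD-1.

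The first comparison asks what PD-1 blockade did to these genes in non-obese mice. All 10 genes were lower with anti-PD-1 than with isotype, and 7 of them fell past the study's thresholds, which are more than a 2-fold change together with a P value, not corrected for the number of genes, under 0.05 (edgeR quasi-likelihood F-test). Of all 13095 genes tested, 2.31% were called lower and 0.115% higher, so that fall was the commoner direction of call here. The log2 fold change was -2.09 ± 0.59 for Mfap5 and -2.07 ± 0.63 for Dpt (standard error, FDR 0.833 for each). Dcn fell by 1.70, Pdgfra by 1.54, Ccdc80 by 1.28, Postn by 1.14 and Thy1 by 1.12 on the log2 scale. Lum (-1.49, 95% interval -3.12 to 0.14), Fap (-0.54, -1.76 to 0.67) and Pdgfrb (-0.52, -1.29 to 0.25) did not pass. The median over the 10 genes was -1.39, against 0.02 over all genes.

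None of these differences passed correction over all genes, with a Benjamini-Hochberg FDR from edgeR of 0.833 at lowest, and 0 of 10 also with DESeq2. The counts for all genes were 685 at an unadjusted P below 0.05 and 0 (0%) at an FDR below 0.05. Treated and isotype tumors were fully separate for Pdgfrb, Thy1 and Mfap5, 3 of the 10, and 5.37% of all genes were lower without overlap. Single tumors decided part of the count of calls, which was 3 without isotype replicate 3 or without anti-PD-1 replicate 1, 4 without isotype replicate 2 and at most 8. Of all genes, 202, 180 and 171 were called lower in those fits, against 302 with all tumors. The fits that gave 8 called 491 of all genes lower without isotype replicate 1 and 476 without anti-PD-1 replicate 3. Mfap5, Dpt and Ccdc80 passed in all 12 fits that left out a tumor.

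The second comparison puts the same question to obese mice. Of the 10 genes, 9 were higher with anti-PD-1 and Fap was lower (-0.27, FDR 0.934), but 0 passed both thresholds, when 2.24% of all genes were called higher and 0.206% lower. Ccdc80 came closest, at 0.96 on the log2 scale (95% interval 0.06 to 1.86, FDR 0.631). Dpt was at 1.15 (-0.17 to 2.46), Dcn at 0.93 (-0.34 to 2.19) and Pdgfrb at 0.18 (-0.59 to 0.96). The intervals of all genes but Ccdc80 included no change, and most also included a doubling. The median was 0.62, against -0.01 over all genes.

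In obese mice, the groups overlapped in CPM for all 10 genes, whereas 5.45% of all genes were higher without overlap. The lowest FDR was 0.631 (edgeR), and 0 of 10 passed an FDR of 0.05 with DESeq2 as well. Across all genes 991 had an unadjusted P below 0.05 and 0 (0%) an FDR below 0.05. Without obese anti-PD-1 replicate 1, the low tumor of the treated group, 4 genes rose past the thresholds, while the calls over all genes went from 293 to 555 in that direction. It was 2 of the 10 without obese isotype replicate 3 and 1 without non-obese isotype replicate 1, when 360 and 354 of all genes were called higher. Fap was at 0.09 without obese anti-PD-1 replicate 1, and Mfap5 and Pdgfrb were below 0 without obese isotype replicate 2 or without obese anti-PD-1 replicate 3.

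**Figure D2:**
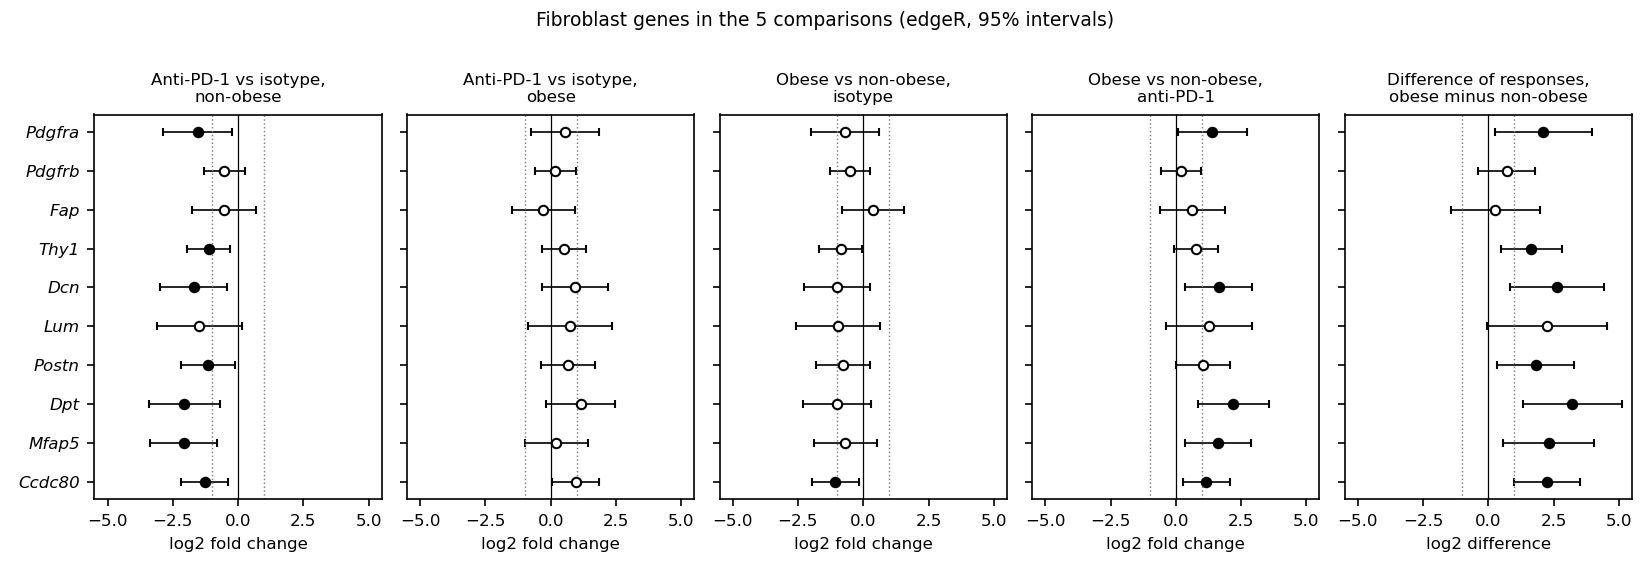
Log2 fold change of each gene with its 95% interval from edgeR in the 5 comparisons, with filled points past both thresholds and dotted lines at a fold change of 2. All points lie left of 0 for anti-PD-1 in non-obese mice and all lie right of 0 for obese against non-obese mice under anti-PD-1.

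Obese and non-obese mice were next compared under isotype. Of the 10 genes, 9 were lower in obese mice and Fap was higher (0.37, FDR 0.795). Ccdc80 alone fell past the thresholds, by 1.07 on the log2 scale (standard error 0.42, FDR 0.319), when 1.12% of all genes were called lower and 0.244% higher. Thy1 was at -0.86 (95% interval -1.69 to -0.03), under the fold threshold. Dpt was at -1.01, Dcn at -0.99, Lum at -0.97, Postn at -0.77, Pdgfra at -0.70, Mfap5 at -0.69 and Pdgfrb at -0.52, and the 95% intervals of these 7 genes included 0. The groups overlapped for all 10 genes, against 9.02% of all genes lower without overlap.

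This comparison leaned on non-obese isotype replicate 1, the low tumor of its group, without which 7 of the 10 genes were called lower, while the calls over all genes rose from 147 of 13095 to 366 of 13337. Without non-obese isotype replicate 2 or 3, or obese isotype replicate 2, the count among the 10 was 0, when 53, 90 and 62 of all genes were called lower. Without obese isotype replicate 3 it was 2, beside 181 of all genes. Without obese isotype replicate 1 it was still 1, but the gene was Thy1 (-1.29, FDR 0.187) in place of Ccdc80 (-1.11, FDR 0.303). Ccdc80 thus passed in 8 of the 12 fits that left out a tumor. The count was 0 as well without the 2 smallest libraries, when 71 of all genes were called lower. With the replicate number as a block it was 0 too, with Ccdc80 at -0.997 (FDR 0.324), just short of a 2-fold change. Over all genes, 1739 had an unadjusted P below 0.05 and 0 (0%) an FDR below 0.05, and with DESeq2 0 passed of the 5 that it gave an FDR (Pdgfrb, Thy1, Dcn, Postn and Ccdc80).

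Under anti-PD-1, all 10 genes were higher in obese than in non-obese mice and 5 rose past the thresholds, against 3.69% of all genes called higher and 0.565% lower. Dpt rose most, by 2.21 on the log2 scale (standard error 0.64, FDR 0.183), followed by Dcn (1.64, FDR 0.340), Mfap5 (1.62, FDR 0.340), Pdgfra (1.40, FDR 0.452) and Ccdc80 (1.17, FDR 0.332). Lum (1.26, FDR 0.630), Postn (1.04, FDR 0.491), Thy1 (0.78, FDR 0.526), Fap (0.64, FDR 0.790) and Pdgfrb (0.19, FDR 0.923) did not pass. The median was 1.22, against -0.01 over all genes.

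Obese and non-obese tumors were fully separate for Dpt, Mfap5 and Ccdc80, and 6.54% of all genes were higher without overlap. With edgeR, 0 of the 10 genes had an FDR below 0.05, while 50 of all genes did (0.382%) and 1345 had an unadjusted P below 0.05. DESeq2 gave 1 of the 10, Dpt, an FDR of 0.0179, when 270 of all genes had an FDR below 0.05. With the replicate number as a block in edgeR, 1 of the 10, Dpt again, had an FDR of 0.0414 (log2 fold change 2.28), while the count of calls was still 5. The block gave 95 of all genes an FDR below 0.05 and called 512 higher. Over the alternatives that tested Dpt its FDR ran from 0.0179 to 0.554, and a filter of at least 10 counts in every tumor dropped it. The count of 5 fell to 1 without obese anti-PD-1 replicate 3, to 2 without non-obese anti-PD-1 replicate 1 and to 3 without obese anti-PD-1 replicate 2. Of all genes, 310, 371 and 337 were called higher in those fits, against 483 with all tumors. The count among the 10 was 7 without obese anti-PD-1 replicate 1 and 8 without the 2 smallest libraries, when 690 and 692 of all genes were called higher. Dpt passed in all 12 fits that left out a tumor.

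The last comparison tests directly whether the response to anti-PD-1 differed between the diets. It is built from the same 12 tumors as the other 4, which share their control tumors, and is no separate evidence. All 10 genes had a higher response in obese than in non-obese mice and 7 passed the thresholds, against 4.93% of all genes called higher and 0.832% lower. The difference in log2 fold change was 3.21 for Dpt (standard error 0.88, FDR 0.154) and 2.24 for Ccdc80 (0.59, FDR 0.143). It was 2.63 for Dcn, 2.31 for Mfap5, 2.10 for Pdgfra, 1.81 for Postn and 1.64 for Thy1. Lum reached 2.24 with a wide interval (-0.06 to 4.53, FDR 0.404), and Pdgfrb (0.71, FDR 0.579) and Fap (0.27, FDR 0.911) were closest to 0.

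The median difference was 2.17, against -0.04 over all genes. No gene of the 13095 had an FDR below 0.05 with edgeR (0%), though 1687 had an unadjusted P below 0.05. DESeq2 gave an FDR below 0.05 to 283 of all genes and to 2 of the 10, Ccdc80 (FDR 0.00872) and Dpt (FDR 0.0117). Over all alternatives the FDR of Ccdc80 ran from 0.00872 to 0.424. That of Dpt ran from 0.0117 to 0.473 over those that tested it, which the filter of at least 10 counts in every tumor did not. Leaving out single tumors gave between 5 and 9 calls among the 10, while 516 to 849 of all genes were called higher. Dcn, Dpt, Mfap5, Ccdc80 and Thy1 passed in every one of the 12 fits and Postn in 11, all but that without obese anti-PD-1 replicate 3 (1.56). Pdgfra passed in 5, and was at 1.66 to 2.04 in the 7 fits that lost it, those without replicate 2 or 3 of non-obese isotype or of obese anti-PD-1, without replicate 1 or 2 of non-obese anti-PD-1, or without obese isotype replicate 2.

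The 10 genes varied together from tumor to tumor, inside groups as well as between them. Over 45 pairs of genes, Pearson's r of log2 CPM across the 12 tumors had a median of 0.848 (0.353 to 0.965), and Spearman's rho of 0.825. With the group means removed, the median r was 0.856. Dcn (0.979) and Pdgfra (0.972) followed the mean of the other 9 most closely, and Pdgfrb (0.686) and Fap (0.661) least. All 10 genes were above their own mean in replicates 2 and 3 of non-obese isotype and of obese anti-PD-1, and 0 were in non-obese anti-PD-1 replicate 1. Obese isotype replicate 2 and obese anti-PD-1 replicate 1 each had 1 gene above its mean. These are descriptions over shared libraries and carry no test.

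**Figure D3:**
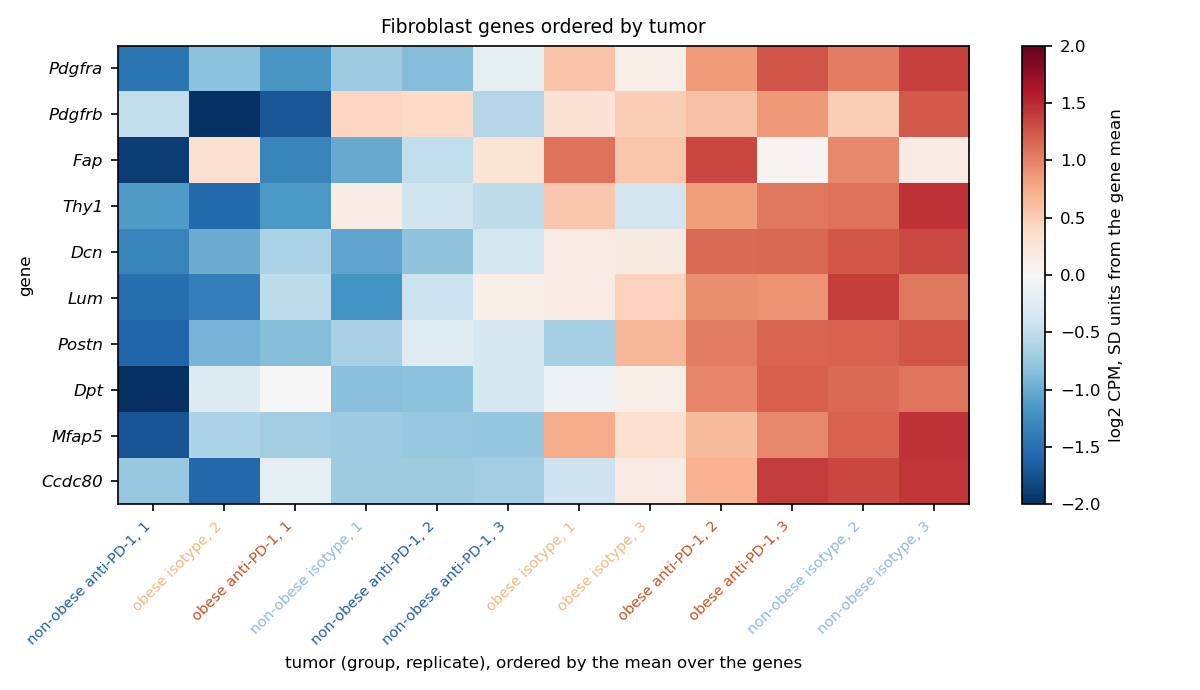
Log2 CPM of each gene in SD units from its own mean (red high, blue low), tumors ordered by the mean over the 10 genes and labels colored by group. Non-obese anti-PD-1 replicate 1 is lowest at -1.40 and non-obese isotype replicate 3 highest at 1.18, and each of non-obese isotype and obese anti-PD-1 has replicate 1 apart from its other 2 tumors.

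Counts relative to Pdgfrb of the same library need no scaling between tumors, and some groups that overlapped in CPM were apart on this ratio and the reverse. The ratio also moves with Pdgfrb itself, which was lowest in obese isotype replicate 2 (16.6 CPM) and obese anti-PD-1 replicate 1 (18.5 CPM). Pdgfrb followed the summed pericyte markers with r = 0.957. Per 100 Pdgfrb counts, Dpt had 2.99 to 16.7 counts in non-obese isotype, 1.19 to 6.99 in non-obese anti-PD-1, 6.13 to 13.03 in obese isotype and 14.2 to 15.4 in obese anti-PD-1 tumors. Dcn had 7.19 to 37.9, 8.33 to 18.0, 17.5 to 19.3 and 22.9 to 34.1 in the same order of groups. Ccdc80 had 18.3 to 54.5, 18.5 to 27.5, 22.8 to 29.4 and 37.3 to 56.9.

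In non-obese mice, anti-PD-1 and isotype tumors overlapped on this ratio for all 9 genes, Thy1 (35.5 to 50.2 against 46.0 to 70.9) and Mfap5 (3.23 to 7.14 against 4.94 to 20.5) included, while 0.481% of all other genes were lower without overlap. In obese mice, anti-PD-1 tumors lay above isotype tumors without overlap for Dpt, Dcn, Ccdc80 and Lum (4.20 to 5.74 against 2.10 to 4.02), 4 of the 9 genes, as did 2.68% of all other genes. Between diets under anti-PD-1, obese tumors lay above non-obese tumors without overlap for Dpt, Dcn, Ccdc80, Mfap5 (11.8 to 14.9 in obese mice), Postn (140.8 to 165.6 against 57.1 to 122.7) and Thy1 (57.3 to 60.7), as did 3.6% of all other genes. Pdgfra (6.49 to 12.9 against 3.23 to 8.39), Lum and Fap (1.79 to 3.90 against 1.02 to 3.57) overlapped there.

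Of 13085 other genes, the most like the mean of the 10 genes across the 12 tumors was Col3a1 (type III collagen, r = 0.987). Svep1 (0.984), C3 (complement component, 0.982), Fndc1 (0.979), Scara3 (0.976), Bgn (biglycan, 0.976), Cd209f (0.975) and Lsp1 (0.974) followed. The median r of all genes was -0.06, and 165 genes were above 0.9.

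Other matrix gene groups were counted in the same fits, in which 2.31% of all genes were called lower with anti-PD-1 in non-obese mice and 4.93% higher in the difference between responses. In the collagen list, all 10 genes were lower with anti-PD-1 in non-obese mice and 8 passed the thresholds, led by Col1a1 (-2.22, FDR 0.833), and all 10 passed in the difference between responses. Of 18 microfibril and elastic fiber genes, 17 were lower in non-obese mice and 6 passed, including the crosslinking enzymes Lox (-2.08) and Loxl1 (-1.87) and the microfibril backbone Fbn1 (-2.11), and 10 passed in the difference. All 10 adventitial fibroblast genes were lower and 8 passed, led by Sfrp2 (-3.33) and Tnxb (-2.20), and 8 passed in the difference. All 9 contractile and activated fibroblast genes tested were lower and 3 passed (Cthrc1 -2.55, Lrrc15 -2.22, Tnc -1.61) and 4 passed in the difference. Median differences between responses were 1.92 for collagens, 2.06 for microfibril genes, 2.69 for adventitial genes and 1.51 for contractile genes, beside 2.17 for the 10 genes. The list medians therefore ran in the same direction as the 10 genes.

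The PDGF ligands had 0 of 4 genes called in any comparison, with Pdgfc at -0.90 (FDR 0.929) and Pdgfa at 0.05 (FDR 0.976) in non-obese mice. Of 10 TGF-beta ligands, receptors and Smads, 0 were called in any comparison. Tgfb1, the main ligand, was at -0.55 (FDR 0.833) in non-obese mice and 0.81 (FDR 0.215) in the difference, both under the fold threshold. By comparison and direction 0.115% to 4.93% of all genes were called, so 0 calls in lists this small lies near that share. Among other small leucine-rich proteoglycans, 9 of 15 genes were tested, Bgn (-1.12) and Ogn (-2.06) fell in non-obese mice, and Podn (3.44), Bgn (1.74) and Ogn (3.13) passed in the difference.

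Markers of other cell types moved beside the fibroblast genes. The 8 macrophage markers summed to 200 to 443 CPM in non-obese isotype, 139 to 182 in non-obese anti-PD-1, 147 to 283 in obese isotype and 214 to 477 in obese anti-PD-1 tumors, with none at 0. All 8 were lower with anti-PD-1 in non-obese mice and 5 of them passed the thresholds, led by Cd163 (-3.15) and Mrc1 (-1.37), and 8 passed in the difference, against 2.31% of all genes called lower and 4.93% called higher in the difference. Between diets, 7 of the 8 were called higher in obese mice under anti-PD-1 and 3 lower under isotype. Of all genes, 3.69% and 1.12% were called in those directions. Against the summed macrophage markers, Pearson's r over 12 tumors was 0.946 for Dcn (Spearman 0.853, 0.931 without the 2 tumors farthest from the median), 0.909 for Pdgfra, 0.626 for Pdgfrb and 0.594 for Fap. The macrophage part in the results for the 10 genes was not tested.

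The 6 pericyte markers summed to 65.9 to 93.4 CPM in non-obese isotype, 57.2 to 83.8 in non-obese anti-PD-1, 33.5 to 81.7 in obese isotype and 39.1 to 84.5 in obese anti-PD-1 tumors, with none at 0. Of the 6, 0 were called in any comparison, near the 0.115% to 4.93% of all genes called by comparison and direction. The median log2 fold change of the pericyte markers with anti-PD-1 was -0.22 in non-obese mice, 0.11 in obese mice and 0.29 in the difference. Pdgfrb followed this sum with r = 0.957 (Spearman 0.762, 0.968 within groups and 0.823 without the 2 farthest tumors). The r with the pericyte markers was 0.486 for Dcn (0.574 within groups) and 0.247 for Dpt (0.354 within groups). The r of Pdgfrb against the summed collagens was 0.850. The pericyte part in these levels was not tested.

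Mouse T cells carry Thy1 too. The 9 T cell markers summed to 5.49 to 8.47 CPM in non-obese isotype, 5.24 to 6.49 in non-obese anti-PD-1, 5.67 to 7.16 in obese isotype and 8.53 to 20.2 in obese anti-PD-1 tumors, with up to 4 markers at 0 in a tumor. Of 7 tested, 2 were called lower with anti-PD-1 in non-obese mice, 5 higher in obese mice and 6 higher in the difference, when 2.31%, 2.24% and 4.93% of all genes were called in those directions. Between diets, 6 of the 7 were called higher in obese mice under anti-PD-1 and 1 lower under isotype, against 3.69% and 1.12% of all genes. A single gene, the kinase gene Lck, made up 31.6% to 88.3% of the sum, with group means between 4.61 ± 0.505 CPM in non-obese isotype and 5.55 ± 1.27 CPM in obese anti-PD-1 tumors (SD, n = 3 each). Without Lck, a choice made after its level was seen, the other 8 markers summed to 1.41 to 3.38, 0.610 to 1.65, 1.35 to 2.10 and 4.44 to 13.8 CPM in the same order of groups. Thy1 followed the 9 markers with r = 0.562 (Spearman 0.538, 0.870 within groups and 0.475 without the 2 farthest tumors), and the 8 without Lck with r = 0.502 (Spearman 0.378, 0.592 within groups and 0.272 without the 2 farthest tumors). Its r was 0.956 with the summed collagens and 0.892 with the macrophage markers. The highest group mean of Thy1 was 29.3 ± 8.81 CPM, in non-obese isotype tumors (SD, n = 3). The T cell part in Thy1 levels was not tested.

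The 8 endothelial markers summed to 151 to 181 CPM in non-obese isotype, 116 to 159 in non-obese anti-PD-1, 99.7 to 164 in obese isotype and 121 to 189 in obese anti-PD-1 tumors, with none at 0. With anti-PD-1, 7 of 8 were lower in non-obese mice and 7 of 8 higher in obese mice. Only Tek, the angiopoietin receptor, was called lower in non-obese mice (-1.54), and it alone was called in the difference (2.31). Of all genes, 2.31% were called lower in non-obese mice and 4.93% higher in the difference. Between diets, 1 of the 8 was called higher in obese mice under anti-PD-1 and 0 lower under isotype, against 3.69% and 1.12% of all genes. The summed endothelial markers had an r of 0.929 with Thy1 (Spearman 0.881, 0.913 within groups and 0.889 without the 2 farthest tumors), 0.852 with Pdgfra, 0.821 with Lum, 0.808 with Pdgfrb and 0.479 with Fap. The endothelial part in these levels was not tested.

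Adipocyte and muscle markers also differed by tumor. The 8 adipocyte markers summed to 12.7 to 30.8 CPM in non-obese isotype, 6.81 to 13.5 in non-obese anti-PD-1, 7.95 to 10.4 in obese isotype and 17.6 to 58.8 in obese anti-PD-1 tumors, with up to 3 at 0. With anti-PD-1, 4 of the 8 were called lower in non-obese mice and 7 higher in obese mice, led by Adipoq (adiponectin, -2.37 and 3.01), and 7 were called higher in the difference, when 2.31%, 2.24% and 4.93% of all genes were called in those directions. Between diets, 7 of the 8 were called higher in obese mice under anti-PD-1 and 5 lower under isotype, against 3.69% and 1.12% of all genes. The r of the summed adipocyte markers was 0.740 with Ccdc80 (0.485 within groups), 0.746 with Dpt (0.612 within groups) and 0.100 with Fap (0.177 within groups). Skeletal muscle markers spread from 7.73 to 589 CPM over the tumors, with up to 1 at 0, and followed Postn with r = 0.849 (0.936 within groups), Dpt with 0.717 (0.934) and Mfap5 with 0.568 (0.774). Of the 8, 1 was called higher in obese mice with anti-PD-1 and 1 in the difference, beside 2.24% and 4.93% of all genes.

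Keratinocyte markers were low, with 2 of 8 passing the filter and up to 7 at 0 in a tumor. They summed to 3.18, 13.02 and 1.36 CPM in non-obese isotype tumors, 0.847 to 1.61 in non-obese anti-PD-1, 0.0699 to 1.68 in obese isotype and 1.23 to 2.02 in obese anti-PD-1 tumors. Krt5, a keratin of basal epidermis, was called lower with anti-PD-1 in non-obese mice (-4.56) and in obese mice under isotype (-3.92) and higher in the difference (5.19), and Dsp was not called. The part of adipose tissue, muscle and skin in the results for the 10 genes was not tested. Melanocytic markers had r between -0.15 and -0.01 with the 10 genes (-0.55 for Dpt to 0.14 for Pdgfrb within groups). Of these 8 markers 0 were called in any comparison, beside 0.115% to 4.93% of all genes by comparison and direction.

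**Figure D4:**
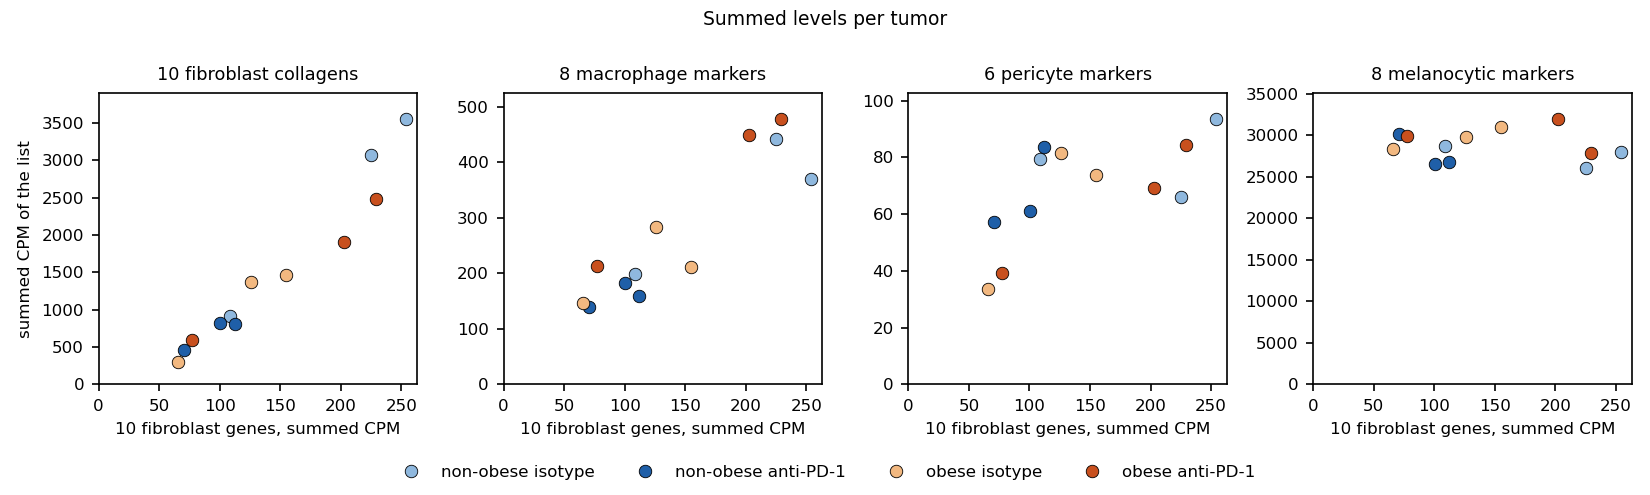
Summed CPM of 4 gene lists against the summed CPM of the 10 fibroblast genes, 1 point per tumor, colored by group, linear axes. Collagens and macrophage markers climb with the fibroblast genes, pericyte markers less so, and melanocytic markers stay between 26045 and 31886 CPM.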

How the data were processed

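RNA from about 0.1 g of frozen tumor was extracted with TRIzol, and poly(A) libraries were made with a stranded kit (TruSeq) and sequenced as single-end reads. Per the labels and the paper's methods, the authors checked reads with FastQC 0.11.5, aligned them to mm10 with STAR 2.7.0f and counted them per gene with HTSeq 0.9.1. The deposited values are raw read counts without normalization. Reads carried no molecular identifiers, so counting errors cover counting only. All 12 columns were matched to tumors by library name, and 0 sample columns were left unused.

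Counts were filtered with filterByExpr, scaled by TMM and fitted in edgeR 4.0.16 (R 4.3.3) with 4 group means over all 12 tumors, 8 residual degrees of freedom and a common dispersion of 0.0352. The quasi-likelihood F-test used the earlier form of glmQLFit (legacy=TRUE), and Benjamini-Hochberg FDR values cover all 13095 genes. Calls needed both more than a 2-fold change and an uncorrected P under 0.05, the study's own thresholds. Log2 CPM for correlations had a prior count of 2. Levels between genes are per kilobase of merged exons. The code was tested on simulated counts.

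The 10 genes and all lists were chosen with earlier results of these data known. Up to 4 genes per list, by smallest P, were named, with the 8 genes most alike by Pearson's r. The older symbols Ctgf and Emr1 stood for Ccn2 and Adgre1. Replicate numbers came from the labels, which state no shared batch or day. Between non-obese and obese mice under anti-PD-1, deviations from the group means had r of 0.443, 0.111 and 0.351 for tumors of the same number. For tumors of different numbers r ran from -0.443 to 0.119 there, so the pair of replicates 2 did not stand apart. Whether the numbers pair tumors is thus not known, and the block is given beside that comparison only as an alternative. Mice are separate, so P values measure the spread between mice. The alternatives were RLE scaling, other filters, the current glmQLFit, a robust prior, DESeq2 1.42.0, only the 6 tumors compared, a replicate block and leaving out each tumor. Leaving out the 2 smallest libraries together was added after seeing the data.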

Additional observations from a re-analysis of the deposited data

Results flagged for a closer look

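For 7 of the 10 genes the response to anti-PD-1 differed between obese and non-obese mice in a test of the difference itself, by the unadjusted thresholds, against 4.93% of all genes called higher and 0.832% lower. The difference in log2 fold change was 2.10 for Pdgfra (edgeR FDR 0.326), 1.64 for Thy1 (FDR 0.237), 2.63 for Dcn (FDR 0.216) and 1.81 for Postn (FDR 0.290). It was 3.21 for Dpt (FDR 0.154), 2.31 for Mfap5 (FDR 0.262) and 2.24 for Ccdc80 (FDR 0.143). None passed the FDR of 0.05 with edgeR. When each tumor was left out in turn, Pdgfra passed in 5 of the 12 fits, Postn in 11 and the other 5 genes in all 12. Each gene was lower with anti-PD-1 in non-obese mice and higher in obese mice, where the higher level passed the thresholds for 0 of the 7. The direction of Mfap5 in obese mice was not stable, at -0.0572 with the replicate block and as low as -0.13 when a tumor was left out. Non-obese isotype replicate 1 and obese anti-PD-1 replicate 1 were the low tumors of their groups for all 7 genes.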

How the results depend on the processing

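With 3 tumors a group, the count of genes past the thresholds moved with single tumors. Leaving out each tumor in turn gave 3 to 8 genes lower with anti-PD-1 in non-obese mice, 0 to 4 higher in obese mice, 0 to 7 lower in obese mice under isotype and 1 to 7 higher in obese mice under anti-PD-1, and 0 to 3 genes with an FDR below 0.05 in the difference. Over all genes, the calls in those directions ran from 171 to 491, 187 to 555, 53 to 366 and 310 to 690. In the difference, the count of all genes with an FDR below 0.05 ran from 0 to 197. It was 111 without non-obese isotype replicate 1, the fit that gave 3 of the fibroblast genes. It was 197 without obese anti-PD-1 replicate 1, where 0 of the fibroblast genes had an FDR below 0.05. Over the same fits, the log2 fold change of Fap ran from -0.88 to 0.091 in obese mice and from -0.34 to 0.70 in the difference. That of Mfap5 ran from -0.13 to 0.59 and of Pdgfrb from -0.12 to 0.53 in obese mice, and of Pdgfrb from -0.067 to 0.52 between diets under anti-PD-1. The cause was not tested.

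In the comparisons other than that between diets under anti-PD-1, at least 1 pair of tumors of the same number had an r of deviations from the group means under 0.1. Between diets under anti-PD-1 the lowest was 0.111, below the 0.119 of a pair of different numbers. The mean r was 0.133 for all 18 pairs of the same number (-0.264 to 0.563) and -0.06 for 36 other pairs. With the replicate block, Mfap5 was at -0.0572 in obese mice. It called 0 of the 10 genes lower in obese mice under isotype (Ccdc80 at -0.997, against -1.07 without the block), beside 174 of all genes. Between diets under anti-PD-1, the block gave 1 gene, Dpt, an FDR below 0.05, beside 95 of all genes. DESeq2 gave 1 gene with an FDR below 0.05 there and 2 in the difference. A model of only the 6 tumors compared called 1 gene, Dpt, higher with anti-PD-1 than with isotype in obese mice, beside 301 of all 12706 genes it tested. Without the 2 smallest libraries, 0 of the 10 genes were called lower in obese mice under isotype and 8 higher under anti-PD-1. Over all genes the counts were 71 and 692, against 147 and 483 with all tumors. The other planned settings kept each count of calls within 1.5 times. Among all genes, DESeq2 gave an FDR below 0.05 to 9 and 105 genes with anti-PD-1 in non-obese and obese mice, 202 and 270 between diets under isotype and anti-PD-1, and 283 in the difference, where edgeR gave 0, 0, 0, 50 and 0. A filter of at least 10 counts in every tumor lowered the genes called in the commoner direction from 302, 293, 147, 483 and 645 to 168, 156, 58, 283 and 391. It left 7 of the 10 genes and dropped Fap, Lum and Dpt, with 6, 5 and 7 counts in their lowest tumors.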
